A study of Macaca fascicularis with 3 samples.

Results

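Of 122 microRNA hairpins with both arms listed in kidney cortex of cynomolgus monkeys (Macaca fascicularis), those of miR-31, miR-140, miR-331, miR-361 and miR-491 were selected on their raw counts, because the arm with more counts was not the same in the 3 animals. They give 10 mature miRNAs of 432 listed, a 5p and a 3p arm each, from mfa-miR-31-5p and mfa-miR-31-3p to mfa-miR-491-5p and mfa-miR-491-3p. The prefix mfa- marks the species and is mostly left off below. The material was cortex, the outer layer of the kidney, from naïve animals between 2 and 3 years of age, with no treatment, genotype or second group given. Each of the 3 libraries came from a different sample, which the study's design text describes as 3 animals, and held 4305977, 4707892 and 3957188 counts on listed miRNAs in animals 1, 2 and 3. Because the counts of the 2 arms in these libraries chose the hairpins, the arm values below are a description with no test.

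A miRNA hairpin is cut by the enzyme Dicer into a short duplex, of which the strand from the 5′ side is named 5p and the strand from the 3′ side 3p. Usually the strand loaded into an Argonaute protein is kept, as the guide, and its partner is degraded, so that a hairpin tends to show a dominant arm. Where both strands are kept, a single transcript gives rise to 2 regulators, since the arms have different seeds, the bases near the 5′ end that pair with target mRNAs, and so different targets. miR-140 lies in an intron of WWP2 and is best known from cartilage, where its loss disturbs skeletal growth. miR-361 lies in an intron of CHM, the choroideremia gene, and miR-491 in an intron of FOCAD. miR-31 is known for roles in epithelia and in tumours.

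The tissue label was checked on miRNAs of known cell types. The kidney epithelial miRNAs miR-192-5p, miR-194-5p and miR-204-5p summed to between 53053 and 61852 counts per 1000000 listed counts (CPM), and endothelial miR-126 to between 39923 and 49842 CPM. miR-143-3p and miR-145-5p of smooth muscle summed to 27860 to 44105 CPM. The erythroid names listed (2 of 3) held 3943 to 5433 CPM, and the leucocyte names (3 of 4) 1358 to 1482 CPM. Skeletal muscle names (2 of 3) held 332 to 545 CPM, neuronal names (2 of 3) 85.7 to 108 CPM and the liver name (1 of 2) 4.04 to 8.82 CPM. miR-140, the cartilage miRNA, reached 527 to 944 CPM over both arms. In bulk tissue, fewer cells of a type and less RNA per cell cannot be told apart.

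The 10 miRNAs fell into 2 tiers of level. The arms of miR-361 and miR-140 had mean levels of 356 to 555 CPM, and the arms of miR-331, miR-31 and miR-491 lay between 1.43 and 7.32 CPM. The highest of these means, that of miR-331-3p, was carried by animal 2 and was 2.16 CPM without it, and that of miR-31-5p was 4.09 CPM with all animals and 2.47 CPM without animal 3. Together the 10 took 0.186% of all listed counts, and 98.8% of these belonged to the 4 arms of miR-361 and miR-140. Ordered by mean CPM, miR-361-3p held rank 98 among the 432, miR-361-5p 99, miR-140-5p 123, miR-140-3p 124, miR-331-3p 324, miR-31-3p 357 with miR-31-5p after it, miR-331-5p 390, miR-491-5p 398 and miR-491-3p 419. Without animal 2, miR-331-3p held rank 390. The step from miR-140-3p to miR-331-3p was the only one in this order where the ranges of neighbours over the 3 animals did not overlap. Over the 3 animals neither arm of miR-361 or of miR-140 was ahead on average by more than the spread: miR-361-3p had 555 CPM ± 55.3 (SD, n = 3) and miR-361-5p 542 CPM ± 407, and miR-140-5p had 357 CPM ± 112 and miR-140-3p 356 CPM ± 185.

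**Figure D1:**
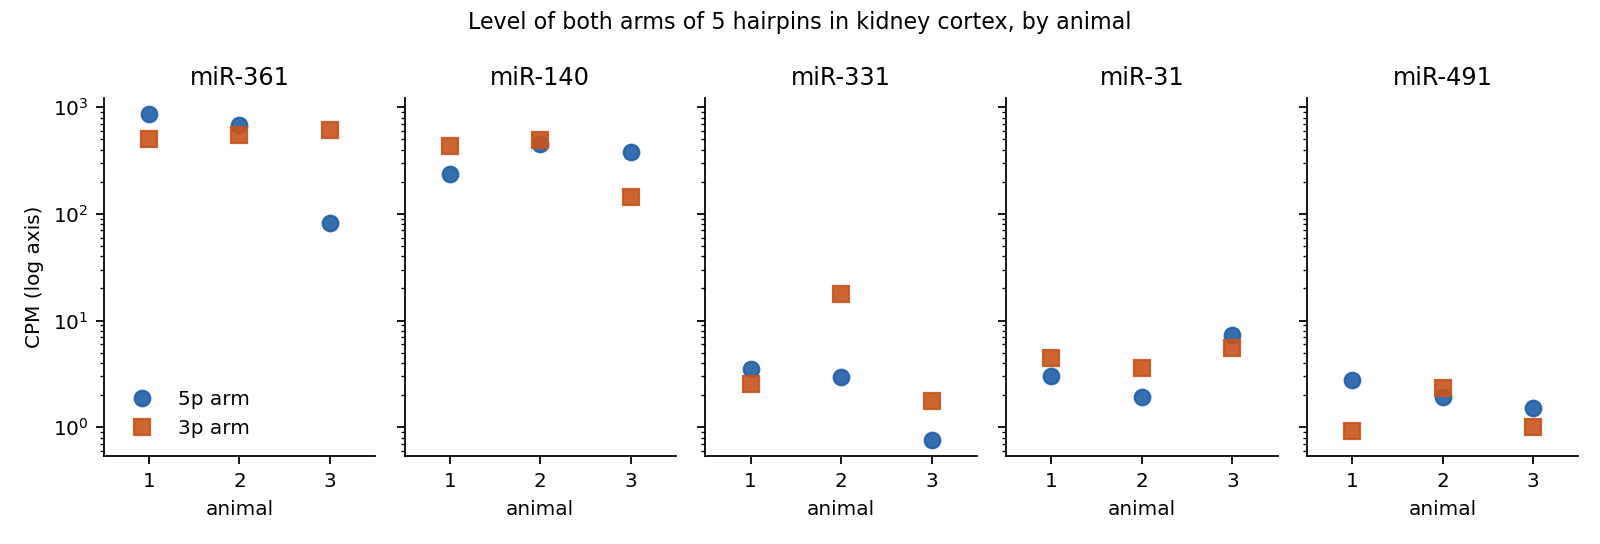
Level of the 5p arm (circles) and the 3p arm (squares) of each hairpin in animals 1, 2 and 3, as CPM on a log axis, 1 library per animal. The arms of miR-361 and miR-140 lie between 82.1 and 856 CPM, and the arms of miR-331, miR-31 and miR-491 at 17.6 CPM or below.

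miR-361 had the widest change of arm use among the 5. For mfa-miR-361-5p the counts were 3687, 3237 and 325 in animals 1, 2 and 3, and for mfa-miR-361-3p they were 2179, 2566 and 2434. The 5p arm was the higher in animals 1 and 2 and the lower in animal 3. The 5p share of the hairpin's counts was 62.9%, 55.8% and 11.8% for the same animals. The Wilson 95% confidence intervals ran from 61.6 to 64.1, from 54.5 to 57.1 and from 10.6 to 13.0. They cover counting error only, since reads without molecular identifiers are not independent molecules, and none of the 3 included 50%. Even animals 1 and 2, which shared the higher arm, had shares whose intervals did not overlap.

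The difference lay mostly in the 5p arm. Scaled by the trimmed mean of M values (TMM), a factor that sets libraries to a common level over most miRNAs, miR-361-5p had 847, 654 and 87.3 CPM in animals 1, 2 and 3, a 9.70-fold span. miR-361-3p had 501, 518 and 654 TMM-scaled CPM, a 1.31-fold span with its highest value in animal 3. On CPM without TMM scaling, the coefficient of variation over 3 animals was 9.95% for the 3p arm and 75.1% for the 5p arm. Both arms added together gave 1348, 1172 and 741 TMM-scaled CPM, a span of 1.82-fold, or 1.15-fold without animal 3. miR-361-5p ranked 85 and 94 among the listed miRNAs in animals 1 and 2 but 177 in animal 3, while miR-361-3p ranked 107, 103 and 94.

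In miR-140 the arm that animal 3 favoured was the 5p arm. For mfa-miR-140-5p the counts were 1010, 2141 and 1511 in animals 1, 2 and 3, and for mfa-miR-140-3p they were 1868, 2301 and 574. The 3p arm was ahead in animals 1 and 2, by a small margin in animal 2, and the 5p arm in animal 3. The 5p share was 35.1% in animal 1, with a Wilson interval of 33.4 to 36.9. It was 48.2% (46.7 to 49.7) in animal 2 and highest, at 72.5% (70.5 to 74.3), in animal 3. No 2 of these intervals overlapped, and the share of animal 2 lay just below the limit of 50% that the choice of hairpins used.

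In miR-140 both arms differed between animals. TMM-scaled, miR-140-5p had 232, 432 and 406 CPM in animals 1, 2 and 3, so that animal 1 was low and animals 2 and 3 lay close together, with a ratio of animal 2 over animal 3 of 1.06 (exact 95% counting interval 0.996 to 1.14). miR-140-3p had 429, 465 and 154 TMM-scaled CPM, so that animal 3 was low and animals 1 and 2 lay close together, with a ratio of animal 2 over animal 1 of 1.08 (1.02 to 1.15). The span was 1.86-fold for the 5p arm and 3.01-fold for the 3p arm. Between animals 1 and 2 the 5p arm thus differed with little difference in the 3p arm, and between animals 2 and 3 the 3p arm differed with little difference in the 5p arm. The sum of both arms was 661, 897 and 560 TMM-scaled CPM, a 1.60-fold span.

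**Figure D2:**
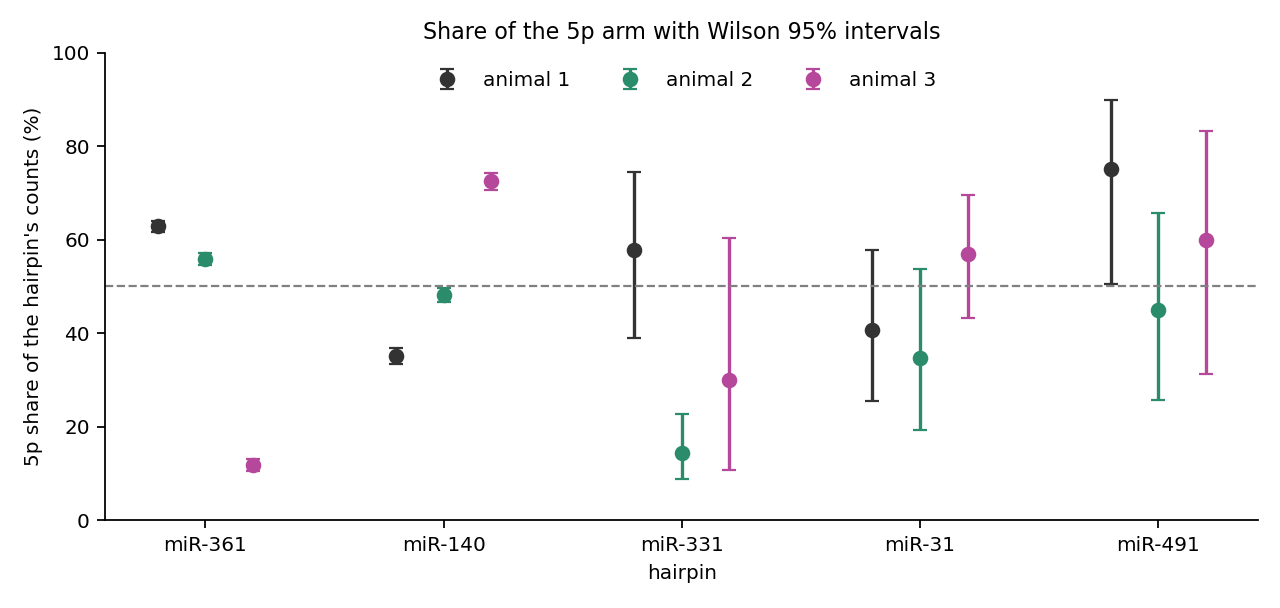
Share of the 5p arm in the counts of each hairpin, in percent, for animals 1, 2 and 3, with Wilson 95% intervals as bars and 50% as the dashed line. The intervals of miR-361 and miR-140 lie on both sides of the line, while most intervals of miR-331, miR-31 and miR-491 cross it.

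The other 3 hairpins rest on few counts. The counts of mfa-miR-331-5p were 15, 14 and 3 in animals 1, 2 and 3, and those of mfa-miR-331-3p were 11, 83 and 7. The 3p arm in animal 2 stood apart from the other 5 values of this hairpin. The 5p share was 57.7% for animal 1, with a Wilson interval of 38.9 to 74.5. It was 14.4% (8.80 to 22.8) for animal 2 and 30.0% (10.8 to 60.3) for animal 3. Only in animal 2 did the interval exclude 50%, so a higher 5p arm in animal 1 was not detectable at this depth, although the intervals of animals 1 and 2 did not overlap.

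TMM-scaled, miR-331-3p was 6.63-fold higher in animal 2 than in animal 1 (exact 95% counting interval 3.52 to 13.8) and 8.91-fold higher than in animal 3 (4.14 to 22.8). For the 5p arm the ratio of animal 2 over animal 1 was 0.820 (0.367 to 1.82), an interval that includes equal levels. In animal 3 miR-331-5p had only 3 counts, or 0.758 CPM. This equals a low-count mark of 3 that was set here, and lower counts occur in the data. The ratio of animal 1 over animal 3 was 4.27 with a counting interval of 1.21 to 23.0. Summed over the arms, miR-331 had 5.97, 19.6 and 2.69 TMM-scaled CPM, and its 7.29-fold span was the widest of the 5 hairpins. The span was 2.22-fold without animal 2 and 3.28-fold without animal 3.

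The counts of mfa-miR-31-5p were 13, 9 and 29 in animals 1, 2 and 3, against 19, 17 and 22 for mfa-miR-31-3p. The 3p arm was ahead in animals 1 and 2 and the 5p arm in animal 3. The 5p share was 40.6% (Wilson interval 25.5 to 57.7), 34.6% (19.4 to 53.8) and 56.9% (43.3 to 69.5) in the same order. All 3 intervals included 50% and overlapped each other, so neither a dominant arm nor a change of it was detectable at this depth. Both arms were highest in animal 3, where miR-31-5p was 4.29-fold above animal 2 on TMM-scaled CPM (exact 95% counting interval 1.98 to 10.3). The sum of both arms was 7.35, 5.25 and 13.7 TMM-scaled CPM, a 2.61-fold span that was 1.40-fold without animal 3 and 1.86-fold without animal 2.

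miR-491 was the lowest of the 5, with 12, 9 and 6 counts of the 5p arm and 4, 11 and 4 counts of the 3p arm in animals 1, 2 and 3. The 5p arm was ahead in animals 1 and 3 and the 3p arm in animal 2. Its 5p share was 75.0% (Wilson interval 50.5 to 89.8), 45.0% (25.8 to 65.8) and 60.0% (31.3 to 83.2) in the same order. The interval of animal 1 alone excluded 50%, on the 5p side, and all 3 overlapped. Both arms together gave 3.68, 4.04 and 2.69 TMM-scaled CPM, a 1.50-fold span.

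By counts alone, the animal with the other higher arm was not the same in all 5 hairpins. In miR-31, miR-140 and miR-361 animals 1 and 2 shared the higher arm and animal 3 had the other, the 5p arm in miR-31 and miR-140 and the 3p arm in miR-361. In miR-331 animal 1 stood alone by this measure, and in miR-491 animal 2. Only in miR-361 and miR-140 did the Wilson intervals lie on both sides of 50%, so for the other 3 a change of higher arm was not detectable. In miR-331 the intervals of animals 1 and 3 included 50% and overlapped, and only that of animal 2 excluded it. The log2 ratio of 5p over 3p counts (0.5 added to each count) averaged -0.60 ± 2.00 (SD, n = 3) for miR-361, 0.13 ± 1.16 for miR-140, -1.06 ± 1.48 for miR-331, -0.34 ± 0.66 for miR-31 and 0.58 ± 0.88 for miR-491. In all 5 the mean was smaller than the SD, which a change of sign between animals favours. The distance between the highest and the lowest animal in this ratio was 3.66, 2.28, 2.96, 1.27 and 1.75 in the same order. Leaving out animal 3 lowered the distance to 0.42 for miR-361, to 0.78 for miR-140 and to 0.35 for miR-31, and left it at 2.96 for miR-331 and 1.75 for miR-491. For these 2 hairpins other animals decided the distance, which was 1.43 for miR-331 and 0.81 for miR-491 without animal 1, and 1.53 and 0.94 without animal 2. For miR-140 it was 1.50 without animal 1.

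Set against all 122 hairpins, the higher arm differed between animals in 9, or 7.38%, of which the 5 are a part by choice. Among the 108 hairpins with a mean combined count of at least 100, it differed in 3 (2.78%), namely miR-140, miR-361 and miR-409. Hairpins with Wilson intervals lying above 50% in one animal and below 50% in another numbered 4 of 122 (3.28%), which were miR-140 and miR-361 along with miR-409 and miR-514b. A dominant arm was the rule: the median absolute mean log2 ratio was 4.33 over all 122 hairpins, the 5 chosen ones included. Hairpins with an absolute mean log2 ratio under 1 numbered 16, and 8 of these had the same higher arm in all 3 animals. 4 of the 5 chosen hairpins lay under this limit, and miR-331 lay at -1.06. The nearest-balanced other hairpins with a mean combined count of at least 100 were miR-409 at -0.05, miR-500a at -0.37 and miR-214 at -0.48. miR-500a lay just outside the choice, with 781 and 793 counts of the 5p and 3p arm in animal 1, 1215 and 1557 in animal 2, and 58 and 97 in animal 3. In miR-214 the 3p arm was the higher in all 3 animals. Its 5p share was 45.1%, 43.2% and 36.9% in animals 1, 2 and 3, with each Wilson interval below 50%.

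**Figure D3:**
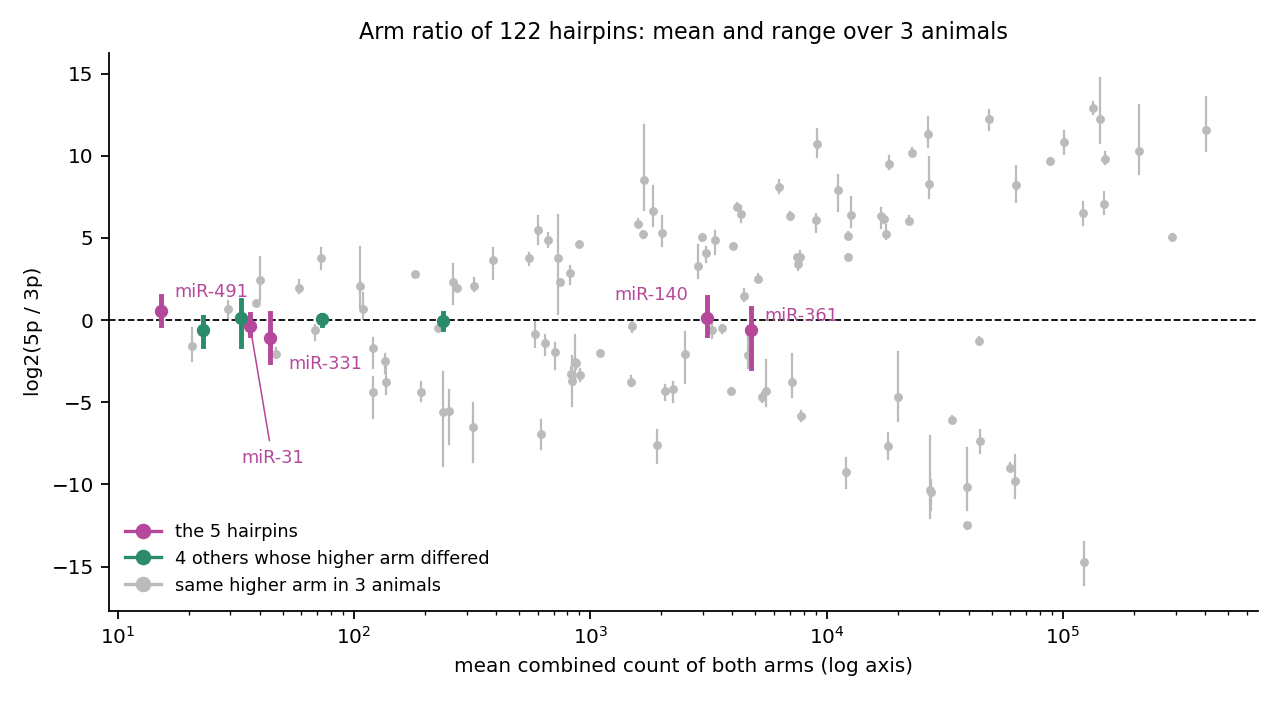
Log2 ratio of 5p over 3p counts (vertical axis) against the mean combined count of both arms (log axis) for 122 hairpins, with the mean over 3 animals as a point and the lowest to highest animal as a line. The 5 chosen hairpins and the 4 others whose higher arm differed lie near 0, and the ranges of the remaining hairpins do not cross it.

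The size of the arm ratio's variation was not confined to these hairpins. A distance of 2 or more between animals in the log2 ratio was found in 34 of 122 hairpins (27.9%), and miR-361, miR-331 and miR-140 were among them. Of the 34, 30 kept the same higher arm. The distance of miR-361 ranked 9 among the 122, and all 8 hairpins with a larger distance kept their higher arm by count. Their absolute mean log2 ratios lay between 3.78 and 12.27. Some of these distances rest on few counts and the added 0.5: in animal 3, miR-127-5p and miR-20b-3p had 0 counts and miR-10a-3p 5. The largest, 6.02 for miR-324, rests on 8 counts of 5p and 6 of 3p in animal 3. There the Wilson interval of the 5p share was 32.6 to 78.6, so a higher arm was not detectable. Not all did: miR-107 had a distance of 4.20 with a lowest arm count of 360, and the lowest arm count of miR-361 was 325. miR-331, miR-140, miR-491 and miR-31 ranked 17, 28, 44 and 58, and the median distance over the 122 was 1.20.

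The hairpins whose arm ratio followed a pattern most like that of miR-361 were miR-92b, miR-423 and miR-675. Likeness was the Euclidean distance between the 3 log2 ratios after subtracting their mean, among 107 other hairpins with a mean combined count of at least 100, and 3 libraries give it little resolution. The distance was 0.32 for miR-92b, 0.76 for miR-423 and 0.88 for miR-675. In animals 1, 2 and 3 the 5p arm had only 9, 10 and 1 counts in miR-92b and 10, 10 and 1 in miR-675. The likeness of these hairpins to miR-361 thus rests on few reads, since the 3p arm carried them over the count minimum. The 5p arm of miR-423 had 758, 697 and 176 counts. The centred log2 ratio of miR-361 was 1.36, 0.94 and -2.30 in animals 1, 2 and 3, that of miR-92b 1.25, 0.79 and -2.04, and that of miR-423 1.34, 0.41 and -1.75. The 3p arm was the higher in all 3 animals in each of these 3 hairpins.

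Levels between animals were then set beside those of all miRNAs. Of the 10 miRNAs, 8 had a mean count of at least 10, and both arms of miR-491 did not. A span over 2-fold in TMM-scaled CPM was found in 5 of the 8, miR-31-5p, miR-140-3p, miR-331-5p, miR-331-3p and miR-361-5p, and in 39.9% of the 391 miRNAs with that mean count. Nothing is read from this count, because these libraries chose the hairpins. Both arms of miR-331 met the mean count of 10 only through animals where they were high, so their place in this count follows partly from that minimum. The 3p arm had 11, 83 and 7 counts in animals 1, 2 and 3, and the 5p arm 15, 14 and 3. Without animal 3 only miR-331-3p spanned over 2-fold. For the sum of both arms, miR-31 and miR-331 spanned over 2-fold, against 30.3% of the 122 hairpins, and miR-31 no longer did so without animal 2 or without animal 3.

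The library of animal 3 held many miRNAs far below the other libraries. On log2(TMM-scaled CPM + 1), animal 3 stood at -2 or lower, relative to the mean of the other animals, for 26 of 391 miRNAs (6.65%). Animals 1 and 2 each did so for 2 (0.512%). Among the 10, miR-361-5p was the only such miRNA, at -3.08, with miR-361-3p at 0.36. miR-140-3p lay at -1.53 with miR-140-5p at 0.36, and both arms of miR-331 were below the others, the 5p arm at -1.19 and the 3p arm at -1.46. Both arms of miR-31 lay above, at 1.39 and 0.50, and those of miR-491 at -0.32 and -0.26. An arm at -2 or below whose partner stayed above -1 was found in 15 hairpins (12.3%), the low arm being 5p in 3 and 3p in 12, and miR-361 was among the 3. The part of this library in the arm changes of miR-361, miR-140 and miR-31 was not tested, and with 1 library per animal, animal and library preparation cannot be told apart.

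**Figure D4:**
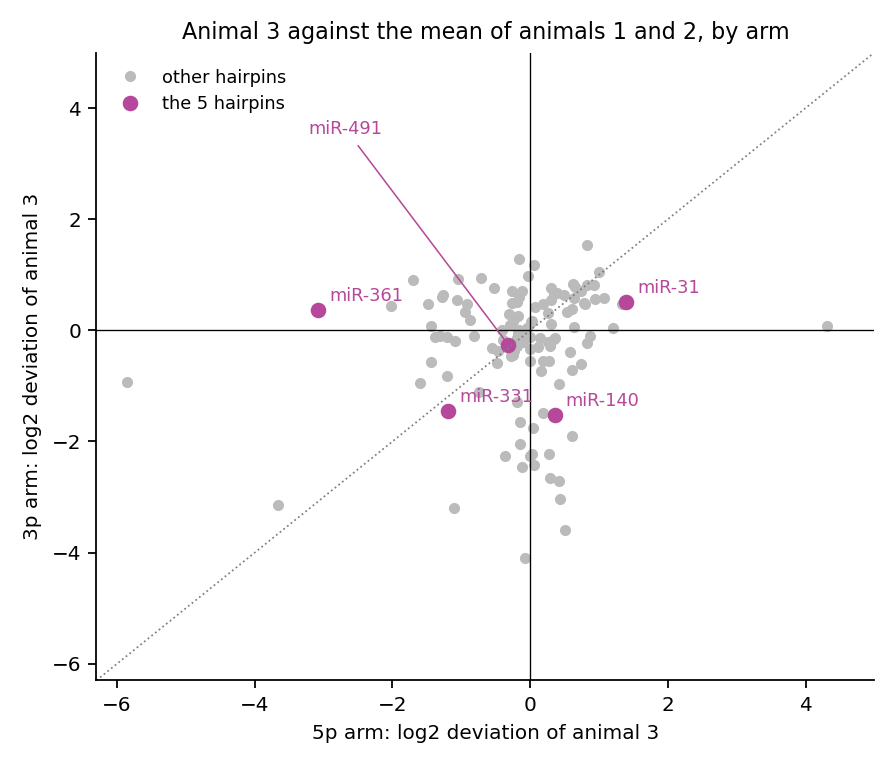
Log2 deviation of animal 3 from the mean of animals 1 and 2, on TMM-scaled CPM + 1, of the 5p arm (horizontal axis) and the 3p arm (vertical axis) for 122 hairpins, with equal change on the dotted line. miR-361 lies at -3.08 for 5p and 0.36 for 3p, miR-140 at 0.36 and -1.53, and the other 3 hairpins have both arms on the same side of 0.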

How the data were processed

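The deposited raw table holds whole-number read counts per mature miRNA for 3 kidney cortex libraries; per the file headers, reads were mapped with 0 mismatches and miRNAs were kept at a minimum of 15 reads, which in the table is the smallest sum over the libraries. The aligner, the miRNA reference release and the handling of reads matching several miRNAs are not given in the sources used here. Reads of near-identical names can thus be split or be counted under each name. Some names have identical counts: miR-376b-5p and miR-376c-5p both had 269, 174 and 152 in animals 1, 2 and 3, and miR-133c-5p and miR-133d-5p both 11, 9 and 6. Such arms enter the 122 hairpins more than once. The authors' second table, a signal made with edgeR per the file headers, equals the count divided by the TMM factor (their product over the count was 1.00002, 0.99999 and 0.99999), without scaling to totals, and was used only as an alternative. It pairs all 10 miRNAs with human names. The number of other per-sample columns was 0.

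Hairpins were formed from names that differ only in 5p or 3p, at a mean combined count of at least 10. CPM used the totals of listed counts. TMM factors came from edgeR 4.0.16 and size factors from DESeq2 1.42.0 in R 4.3.3, with intervals from SciPy 1.17.1. No test was run, since these libraries chose the hairpins and form 1 group. Replicate numbers came from the titles. The log2 deviation, on totals of listed counts, and the log2 arm ratio were tested on simulated data, the ratio only where each arm had at least 100 counts. TMM scaling, the intervals and counts as low as those of miR-31, miR-331 and miR-491 were not covered. Named were the 10 miRNAs, other hairpins whose higher arm differed, the 3 other hairpins nearest to balance and the 3 with the arm pattern nearest to miR-361. The hairpins and lists were chosen with earlier results of these data known. Mature sequences, seeds and genomic positions were not used here. Alternatives were other scalings, count minimums, pseudocounts and leaving out each animal.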

Additional observations from a re-analysis of the deposited data

How the results depend on the processing

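The 9 hairpins whose higher arm differed became 3 at a mean combined count of at least 100 and 4 when each arm needed 10 counts in every library. They became 4 when Wilson intervals had to lie on both sides of 50%. The minimum of 100 still left 108 hairpins, and the Wilson rule was applied to all 122. Below that minimum lay miR-31, miR-331, miR-491, miR-514b, miR-876 and miR-200c, with mean combined counts from 15.3 to 73.0. The hairpins whose higher arm differed numbered from 4 to 8 when an animal was left out, 4 being the number without animal 3. The 5 of the 10 miRNAs spanning over 2-fold became 2 at a mean count of at least 100, and between 1 and 5 without an animal, 1 without animal 3. The 1 miRNA over 4-fold below the others, miR-361-5p, numbered 1 to 2 when an animal was left out, the higher number being without animal 1, when miR-331-3p of animal 3 was compared with animal 2 alone. Without animal 3 the 1 miRNA was no longer miR-361-5p but miR-331-3p, low in animal 1 against animal 2. Scaling by totals, by DESeq2 size factors or by the authors' signal moved neither of these 2 counts by over 1.5 times.

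From counts summed over the libraries, the log2 arm ratio of miR-140 was -0.025 and that of miR-361 0.014, both of opposite sign to the mean over animals. When an animal was left out, that of miR-140 ranged from -0.50 to 0.65 and that of miR-361 from -1.28 to 0.55, and both changed sign without animal 3. In all, 143 recalculated values were compared, of which 122 stayed within the spread or the 1.5 times limit. The spread over 3 animals is a wide limit, so this tally does not show that the values are stable. The mean of miR-331-3p, 7.32 CPM with all animals, stayed within it at 2.16 CPM without animal 2. Counting error limits miR-31, miR-331 and miR-491, whose arms sum to between 10 and 97 counts in a library. No paired analysis was possible because all 3 libraries form 1 group.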

Other observations

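The other 4 hairpins whose higher arm differed between animals were those of miR-409, miR-514b, miR-876 and miR-200c. In animals 1, 2 and 3 the counts were 104, 156 and 89 for miR-409-5p and 77, 160 and 129 for miR-409-3p. Its 5p share was 57.5% (Wilson 95% interval 50.2 to 64.4), 49.4% (43.9 to 54.9) and 40.8% (34.5 to 47.5) in the same order. miR-514b-5p had 30, 22 and 5 counts and miR-514b-3p 18, 9 and 16, so that the 5p share was 62.5% (48.4 to 74.8), 71.0% (53.4 to 83.9) and 23.8% (10.6 to 45.1). The 5p share of miR-876 was 45.0%, 52.3% and 55.9%, and all 3 intervals included 50%. In miR-200c, of the epithelial miR-200 family, it was 42.9%, 24.2% and 53.3%, and the interval excluded 50% in animal 2 alone (12.8 to 41.0).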
